A study of Homo sapiens with 12 samples.

Results

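CHKA, LINC00641 and GRHL3 are 3 genes of SBC3 spheroids whose RNA level under 2 drugs given together departed from the sum of the effects of each drug alone. They are 3 of the 60649 genes in the count files and 3 of the 16683 genes that passed the expression filter. They were picked by that departure, measured in the same 12 libraries, so the departure itself and the single-drug effects that enter it are given below as descriptions with no test. SBC3 is an established human line of small cell lung cancer, here grown as spheroids. The 4 groups had 3 libraries each: control (labelled Control, with no vehicle named), Teriflunomide, Lurbinectedin, and both drugs (Teriflunomide/Lurbinectedin, called the combination here). All 12 libraries came from the same line. Teriflunomide is an inhibitor of pyrimidine synthesis at the enzyme DHODH, and lurbinectedin binds DNA and impairs transcription. The sources used here state neither the doses nor the hours of exposure. The labels do not say whether the 3 libraries of a group came from separate cultures, so the p-values measure only the spread between these libraries, which may be technical.

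CHKA encodes choline kinase alpha, which phosphorylates choline in the opening step of the Kennedy pathway, the main route to phosphatidylcholine, the most abundant phospholipid of animal membranes. The enzyme is known for raised levels in many tumours. GRHL3 is a transcription factor of the grainyhead family, which drives barrier formation and differentiation of surface epithelia such as the epidermis. LINC00641 is a long non-coding RNA, annotated as a processed transcript, with no protein product.

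The positions are those of the hg38 (GRCh38) genome. CHKA (ENSG00000110721.12) lies on the minus strand of chromosome 11, chr11:68052859-68121444, spans 68.586 kb and has 3877 exonic bases. LINC00641 (ENSG00000258441.1) lies on the minus strand at chr14:21200079-21206900, spans 6.822 kb and has 5715 exonic bases. GRHL3 (ENSG00000158055.16) lies on the plus strand at chr1:24319357-24364482, spans 45.126 kb and has 3905 exonic bases. The counts cover the exons, untranslated regions included. A gene on the opposite strand, ENSG00000255031, shares 631 of CHKA's exonic bases (16.3%) and had 1 to 11 counts per library, against 551 to 1701 for CHKA. The use of strand in counting is not given in the sources used here. GRHL3 is overlapped by GRHL3-AS1 (0 to 1 counts per library) and STPG1 (130 to 243 counts), with 0 shared exonic bases, and no gene overlaps LINC00641.

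The RefSeq promoter windows (GRCh38.p14) hold 250 bases before a start site and 50 from it onward, and 2 of the 3 genes, GRHL3 and LINC00641, matched. The windows at the gene starts of GRHL3 (chr1:24319107-24319406, plus strand) and LINC00641 (chr14:21206851-21207150, minus strand) are shown because these genes moved in opposite directions under the drugs. They read 5′ to 3′ on the gene's strand. Capitals mark matches, on either strand, to the searched motifs: the TATA box TATAAA, the box CCAAT, the GC box GGGCGG, the E-boxes CACGTG and CACCTG, the grainyhead-type AACCGGTT and its looser form AACCNGTT (which covers AACCGGTT), the cAMP element TGACGTCA and the p53 decamer.
GRHL3: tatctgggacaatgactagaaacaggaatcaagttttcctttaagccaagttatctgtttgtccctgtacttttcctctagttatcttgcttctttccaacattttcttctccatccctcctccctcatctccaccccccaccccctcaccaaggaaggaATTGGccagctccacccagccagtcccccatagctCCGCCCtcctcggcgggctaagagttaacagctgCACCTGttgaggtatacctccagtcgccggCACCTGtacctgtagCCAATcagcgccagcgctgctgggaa
LINC00641: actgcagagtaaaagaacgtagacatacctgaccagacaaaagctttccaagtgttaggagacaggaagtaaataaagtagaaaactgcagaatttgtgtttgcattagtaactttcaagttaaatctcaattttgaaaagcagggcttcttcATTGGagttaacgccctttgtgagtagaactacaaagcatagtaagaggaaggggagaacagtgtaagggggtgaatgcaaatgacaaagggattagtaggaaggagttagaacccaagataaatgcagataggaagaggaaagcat
The GRHL3 window had a GC content of 53% and the LINC00641 window 39%, against a median of 58.7% over 35116 windows. The GRHL3 window held CCAAT at 2 places, GGGCGG at 1 place (as CCGCCC) and CACCTG at 2 places. These motifs occur in 34.6%, 45% and 20.6% of all windows. The LINC00641 window held 1 CCAAT match. The grainyhead-type motifs, in 0.134% and 1.73% of all windows, were not among the letters of either window. A further window of GRHL3, chr1:24322790-24323089, held 1 match to the p53 decamer, found in 6.63% of windows, and a further one of LINC00641, chr14:21205454-21205753, held TATAAA, found in 11.5%. A match is a description of the letters, and no binding was measured.

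Total counts ranged from 23206414 to 33222162 per library. The share of counts on the mitochondrial genome was 6.26% to 7.17% in control, 13.8% to 17.0% with lurbinectedin, 8.42% and 8.43% in teriflunomide replicates 1 and 2, and 14.6% and 13.1% in combination replicates 1 and 3. Teriflunomide replicate 3 (22.6%) and combination replicate 2 (24.9%) stood apart, and results are given without them where these libraries bear on the value. Of 14 small cell and neuroendocrine markers, INSM1, GRP, CALCA and UCHL1 had 0 counts in all 12 libraries, NCAM1 was near 0, and YAP1 was at 246 ± 12 CPM (SD, n = 3) in control. SYP was at 16.8 ± 0.765 CPM and NEUROD1 at 4.03 ± 0.317 CPM in control. Several of the usual neuroendocrine markers of the labelled cell type were thus absent or near 0 in these libraries. Others of the 14, SYP and NEUROD1 among them, were detected. CPM, the level used throughout, is counts per 1000000 of the library size after TMM scaling, a correction for differences in composition. In bulk RNA, fewer cells of a kind and less RNA per cell cannot be told apart.

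CHKA was lower in every treated library than in any control library. In control it stood at 50.1, 51.3 and 50.8 CPM in replicates 1, 2 and 3. With teriflunomide it stood at 29.5, 26.9 and 21.8 CPM, with lurbinectedin at 26.7, 29.5 and 28.9 CPM, and with the combination at 31.4, 28.7 and 32.7 CPM. The 3 control libraries lay above all 9 treated ones, and the 3 treated groups overlapped one another. The share of all genes that separate in this way was not counted, for CHKA or for LINC00641 and GRHL3 below. The single-drug values are also among those that chose the genes, so the separation is a description. The lowest value belonged to teriflunomide replicate 3, one of the libraries with the high mitochondrial share. As group means these are 50.7 ± 0.577 CPM in control, 26.1 ± 3.93 with teriflunomide, 28.4 ± 1.48 with lurbinectedin and 30.9 ± 2.05 with both (SD, n = 3 each), so each single drug left 51.4% and 55.9% of the control level and the combination 61.0%.

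The comparison of the combination with control is uncorrelated with the departure that chose the genes only where all groups vary alike. The choice also used the same spread between libraries, so the adjusted p-values of CHKA, LINC00641 and GRHL3 are not free of it. CHKA fell by 0.71 on the log2 scale (SE 0.120; adjusted p = 0.000114 by edgeR's quasi-likelihood test with Benjamini-Hochberg adjustment, as for every adjusted p below). In this comparison 68.4% of all genes tested were called, 34.1% higher and 34.4% lower, so a fall of a single gene is common. Scaling by library size alone in place of TMM shifts the median of all genes in this comparison by -0.17 on the log2 scale and that of the interaction by 0.14. CHKA then stood at -0.87, lower by about that shift. Without teriflunomide replicate 3 and combination replicate 2, a choice made after seeing the data, the log2 fold change was -0.67.

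LINC00641 was also lower in all treated libraries. Its level was 42.1, 44.7 and 44.3 CPM in the control replicates. It was 16.2, 19.3 and 22.0 CPM with teriflunomide, 17.8, 19.0 and 15.8 CPM with lurbinectedin and 19.1, 24.7 and 16.0 CPM with the combination. All treated libraries lay below all control libraries, the treated groups overlapped, and the highest treated value was that of combination replicate 2, the other library that stood apart. The group means were 43.7 ± 1.37, 19.2 ± 2.87, 17.5 ± 1.63 and 19.9 ± 4.38 CPM (SD, n = 3 each), or 43.9% of control with teriflunomide, 40.1% with lurbinectedin and 45.6% with both. Under the combination LINC00641 fell by 1.14 on the log2 scale (SE 0.158, adjusted p = 2.08e-05), and the value was -1.33 without the 2 libraries that stood apart.

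GRHL3 rose, from a level close to its detection limit. The control replicates held 0.134, 0.167 and 0.179 CPM, from 4, 5 and 6 counts. With teriflunomide the level was 0.674, 0.569 and 0.715 CPM, from 23, 19 and 21 counts. With lurbinectedin it was 6.64, 6.57 and 6.87 CPM, and with the combination 6.95, 6.20 and 7.27 CPM, from 137 to 228 counts per library. Control, teriflunomide and the lurbinectedin libraries formed 3 separate levels, and only lurbinectedin and the combination overlapped. The group means were 0.160 ± 0.0234, 0.653 ± 0.0756, 6.69 ± 0.158 and 6.81 ± 0.554 CPM (SD, n = 3 each). Summed counts gave ratios to control of 4.04 with teriflunomide (95% exact interval 2.28 to 7.64), 41.6 with lurbinectedin (25 to 75) and 42.6 with the combination (25.6 to 76.7). These intervals cover counting error only, and they are wide because the 3 control libraries hold 15 GRHL3 counts in all. Under the combination GRHL3 rose by 5.37 on the log2 scale (SE 0.207, adjusted p = 1.33e-10), and by 5.42 without the 2 libraries that stood apart. With 4 to 6 counts per control library, GRHL3 passed the expression filter through the treated groups, where it is high. Its adjusted p against control is therefore no independent support for a rise.

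**Figure D1:**
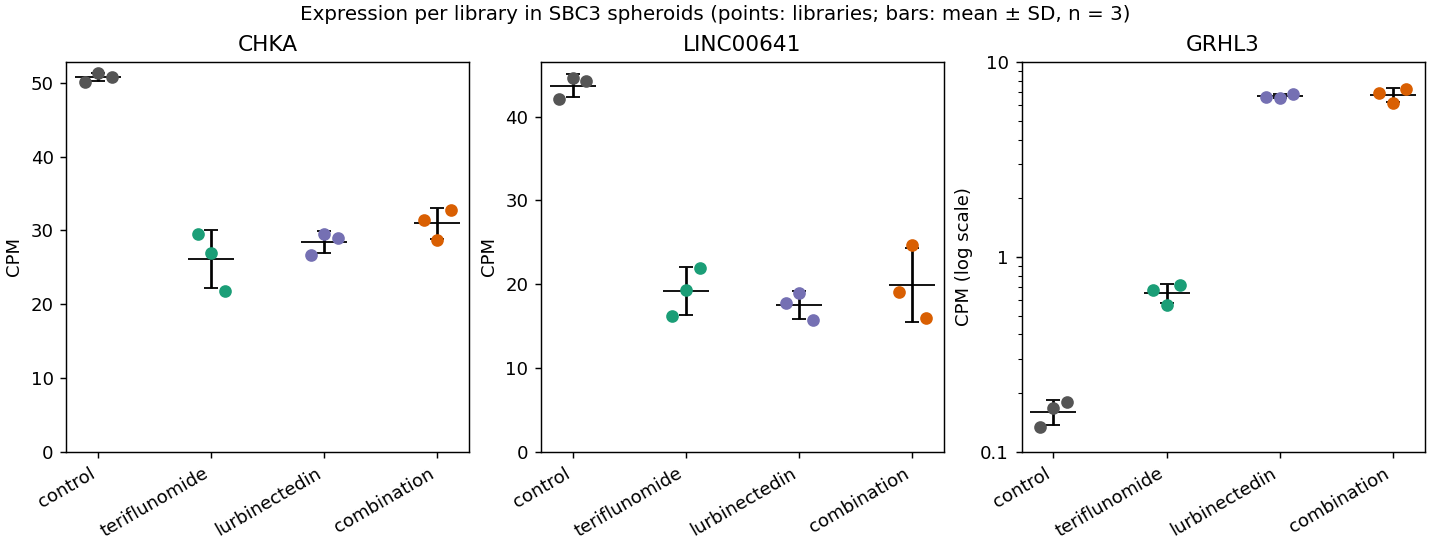
CPM of CHKA, LINC00641 and GRHL3 in each of the 12 libraries by treatment group; points are libraries, horizontal bars the mean and error bars the SD (n = 3), and the GRHL3 axis is on a log scale. CHKA and LINC00641 are highest in the 3 control libraries and the treated groups overlap, while GRHL3 steps up from 0.160 CPM in control to 0.653 CPM with teriflunomide and to 6.69 and 6.81 CPM in the groups with lurbinectedin.

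Per kilobase of exon, the order of the 3 levels was the same in control and in the combination, with a narrower range in the combination. In control CHKA had 13.1 CPM per kb, LINC00641 7.64 and GRHL3 0.0410. In the combination the values were 7.98, 3.49 and 1.74 CPM per kb, with CHKA the highest and GRHL3 the lowest in both.

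The drugs were also compared by their average effect, the mean of the change a drug made without and with the other. The limit from the choice of the genes, given for the combination against control, holds here as well. For lurbinectedin this average was -0.30 (SE 0.0847, adjusted p = 0.00522) for CHKA, -0.63 (SE 0.112, adjusted p = 0.000121) for LINC00641 and 4.36 (SE 0.133, adjusted p = 2.55e-12) for GRHL3, on the log2 scale. Of all genes tested, 79.8% were called in this comparison, 40.6% higher and 39.2% lower. For teriflunomide, with 10.6% of genes called (6.4% higher, 4.21% lower; 1068 and 702 genes, against 327 and 104 with library-size scaling), the average was -0.42 for CHKA (SE 0.0848, adjusted p = 0.0143), -0.50 for LINC00641 (SE 0.111, adjusted p = 0.0186) and 1.01 for GRHL3 (SE 0.149, adjusted p = 0.00464). All 3 genes were called in all 3 of these comparisons. GRHL3 passed the expression filter through the treated groups, so its calls are no independent support for a rise.

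The teriflunomide averages of CHKA and LINC00641 were the least secure of the 9 calls. Scaled by library size alone, CHKA had -0.41 with an adjusted p of 0.105. LINC00641 missed the threshold without control replicate 1 (adjusted p = 0.0509), control replicate 2 (0.0524), control replicate 3 (0.0552), lurbinectedin replicate 1 (0.0580) or combination replicate 1 (0.0528), with a log2 value between -0.52 and -0.49. Each average joins a change seen without lurbinectedin with a near-zero one seen in its presence.

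Split by the presence of lurbinectedin, the teriflunomide change was large on one side and small on the other for each of the 3 genes. For CHKA it was -0.96 (SE 0.120) without lurbinectedin and 0.12 (SE 0.120) with it, on the log2 scale. For LINC00641 it was -1.19 (SE 0.157) and 0.18 (SE 0.159), and for GRHL3 1.99 (SE 0.263) and 0.03 (SE 0.135). These are the values that chose the genes and carry no test. With lurbinectedin alone, where 71.6% of all genes were called (36% higher, 35.7% lower; 5999 and 5954 genes, against 4313 and 6699 with library-size scaling), the log2 differences from control were -0.84 (SE 0.120), -1.32 (SE 0.159) and 5.34 (SE 0.208). The comparison of the combination with lurbinectedin shares no library with teriflunomide against control. Lurbinectedin against control shares libraries with both. The values are set side by side and not correlated.

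The whole set of teriflunomide-responsive genes gives the setting for this split. Teriflunomide alone changed 6.01% of all genes at an adjusted p under 0.05, 647 higher (3.88%) and 355 lower (2.13%). Of the 647 genes, whose median log2 fold change was 0.78, 632 had a smaller change in the presence of lurbinectedin, with a median of 0.18. Of the 355 lower ones, 348 had a smaller change, with a median of -0.20 in place of -0.63. These genes were selected by their change without lurbinectedin, so the 2 medians are a description and carry no test. Teriflunomide added to lurbinectedin gave 0 called genes (0% called) with edgeR, where 2599 had an unadjusted p under 0.05. DESeq2 called 584, and edgeR called 612 without the expression filter, 94 with only the groups compared, 2067 without teriflunomide replicate 3 and 259 without combination replicate 2.

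**Figure D2:**
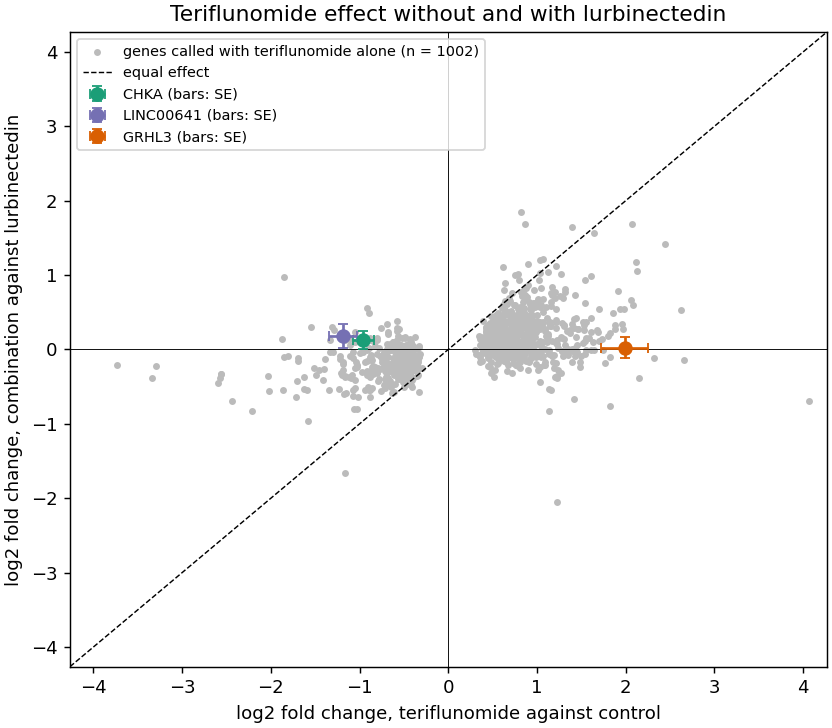
Log2 fold change for teriflunomide without lurbinectedin (horizontal axis) and with it (vertical axis); grey points are the 1002 genes called with teriflunomide alone, coloured points CHKA, LINC00641 and GRHL3 with SE bars, and the dashed line marks an equal effect. The 3 genes sit beside the horizontal zero line, at 0.12, 0.18 and 0.03 on the vertical axis, and at -0.96, -1.19 and 1.99 on the horizontal one.

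The departure from additivity on the log2 scale, the change under the combination minus the sum of the single-drug changes, was 1.08 (SE 0.170) for CHKA, 1.37 (SE 0.223) for LINC00641 and -1.96 (SE 0.298) for GRHL3. Over all genes this interaction was called for 43 (0.258%), 6 higher (0.036%) and 37 lower (0.222%), and the 3 genes are among them because they were picked there. With library-size scaling 2 were called higher and 4 lower. The count was 2 to 616 when single libraries were left out, the highest without teriflunomide replicate 3, and 258 with DESeq2. The 3 departures were 1.02, 1.30 and -1.83 without both libraries that stood apart.

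On the linear scale the picture of the 3 genes divides. If the log2 effects had added up, CHKA would have been at 14.6 CPM in the combination, LINC00641 at 7.69 CPM and GRHL3 at 27.3 CPM. The measured levels were 2.12 and 2.59 times the sum for CHKA and LINC00641, and for GRHL3 the sum was 4.01 times the measured level. If CPM differences are added instead, the sum is 3.72 CPM for CHKA and -7.00 CPM for LINC00641, a level that cannot exist, and the measured levels exceed these sums by 27.2 CPM (SE 2.72) and 26.9 CPM (SE 3.26). For GRHL3 the sum of CPM differences is 7.18 CPM, and the measured level was lower by 0.377 CPM (difference -0.377, SE 0.336). The departure of GRHL3 is therefore present on the log2 scale, while on the linear scale it is close to its standard error.

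**Figure D3:**
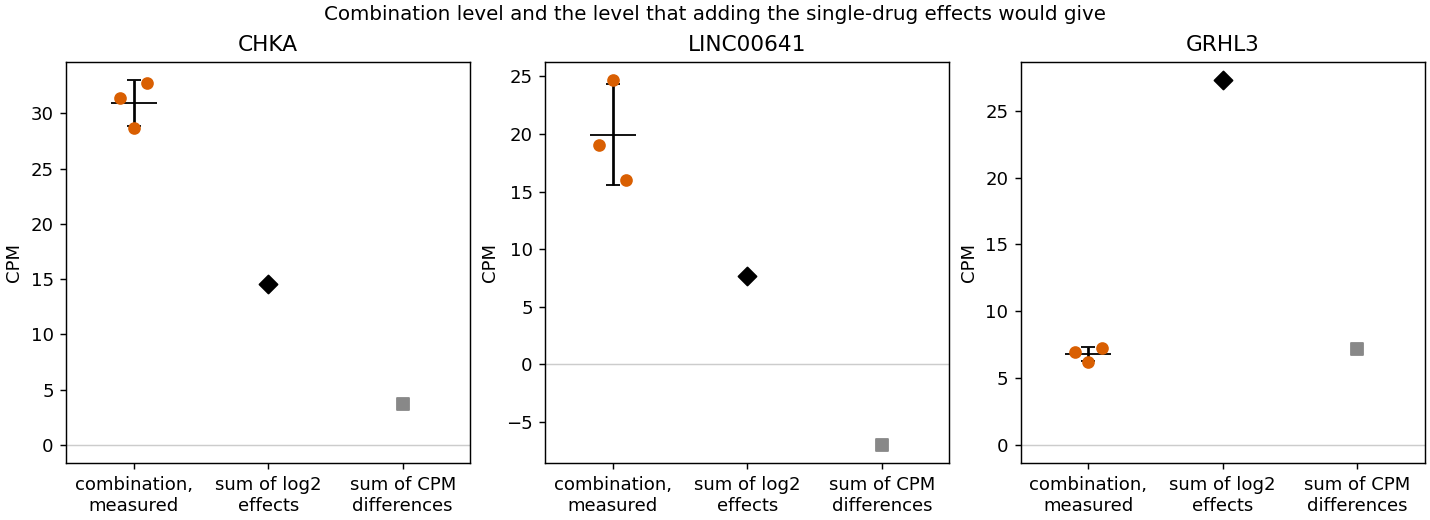
Measured CPM in the 3 combination libraries (points, with mean and SD) beside the level given by adding the single-drug log2 effects (diamond) or CPM differences (square). CHKA and LINC00641 lie above both sums, and GRHL3 lies at 6.81 CPM, below the 27.3 CPM of the log2 sum and near the 7.18 CPM of the linear sum.

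Around CHKA, the Kennedy pathway list holds the enzymes of the choline and ethanolamine branches. Of its 9 genes other than CHKA 8 were tested, and under the combination 1 rose and 3 fell against control. The list median was -0.10 beside 0.04 for all genes, and 50% were called beside 68.4% of all genes (34.1% higher, 34.4% lower). With library-size scaling 0 rose and 3 fell. CHPT1, which transfers phosphocholine to diacylglycerol, fell by 1.28 on the log2 scale (SE 0.152, adjusted p = 4.54e-06), from 37.8 ± 1.37 to 15.6 ± 2.11 CPM. PCYT2, which makes CDP-ethanolamine, fell by 1.01 (SE 0.199, adjusted p = 0.000474), and SELENOI, its ethanolamine phosphotransferase, by 0.44 (SE 0.104, adjusted p = 0.00178). PCYT1A, which makes CDP-choline in the step after CHKA, had a log2 fold change of 0.01 (SE 0.0975, adjusted p = 0.917).

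CHKB, the paralog of CHKA, rose under the combination while CHKA fell. It was at 0.531 ± 0.114 CPM in control, 0.341 ± 0.0481 with teriflunomide, 0.697 ± 0.244 with lurbinectedin and 0.963 ± 0.183 with both (SD, n = 3 each). Its log2 fold change under the combination was 0.85 (SE 0.292, adjusted p = 0.0190), a call that was lost without control replicate 1, control replicate 2 or combination replicate 3, without the expression filter and with library-size scaling. Its interaction was 1.10 (SE 0.440, adjusted p = 0.405). Under lurbinectedin alone 0 genes of the list rose and 4 fell, beside 36% and 35.7% of all genes. With teriflunomide alone edgeR called 0 of the 8, beside 6.01% of all genes. Of the 8, 1 had an unadjusted p under 0.05 and 0 were called by DESeq2. The interaction was called for 0 of 8, with 2 at an unadjusted p under 0.05 and 0 called by DESeq2, which gave no adjusted p for 1.

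Choline transport includes the importers that supply the kinase. Of 7 listed genes 6 were tested, and 1 rose and 3 fell under the combination, with a list median of -1.29. That is 66.7% called, near the 68.4% of all genes (34.1% higher, 34.4% lower). SLC44A1, a choline transporter of the plasma membrane and mitochondria, went from 74.5 ± 3.69 CPM in control to 6.59 ± 2.29 CPM, a log2 fold change of -3.49 (SE 0.203, adjusted p = 4.20e-09). SLC44A3 had a log2 fold change of -2.71 (SE 0.426, adjusted p = 6.58e-05). SLC44A5 had 342 counts over the control libraries and 1 over the combination libraries. The ratio of control to combination was 303 (95% exact interval 54.1 to 12016, which covers counting error only). SLC44A3 had 112 and 15 counts over these libraries. Both genes passed the expression filter through the groups without lurbinectedin, where they are high. Their falls and the list median are therefore no support for a fall of the list. SLC44A4 rose by 1.75 (SE 0.436, adjusted p = 0.00276). SLC44A2 and FLVCR1 had 0.14 and 0.21 and were not called.

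Of 18 genes of phosphatidylcholine turnover 16 were tested, and 5 rose and 10 fell under the combination, with a median of -0.92 (3 and 10 with library-size scaling), beside 68.4% of all genes called. PLA2G4A, the cytosolic phospholipase that releases arachidonic acid, fell from 1488 ± 43.1 to 269 ± 47.4 CPM, a log2 fold change of -2.47 (SE 0.120, adjusted p = 8.19e-10). PEMT, which makes phosphatidylcholine by methylation of phosphatidylethanolamine, had -3.71 (SE 0.288, adjusted p = 6.66e-08), and LPCAT1, a lysophosphatidylcholine acyltransferase, -1.09 (SE 0.0931, adjusted p = 1.57e-07). Under lurbinectedin alone 5 of the 16 rose and 11 fell, beside 71.6% of all genes called. Under teriflunomide alone 1 of the 16 rose, GPCPD1, a glycerophosphocholine phosphodiesterase, by 0.91 (SE 0.0939, adjusted p = 0.000332). It was also the 1 gene of the 16 with a called interaction, which was negative and was not called in 13 of 18 alternatives.

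The relatives of GRHL3 in the grainyhead and CP2 family moved in both directions. Of the 5 other listed factors 4 were tested, and 2 rose and 2 fell under the combination (1 and 2 with library-size scaling), with a median of 0.11 (-0.06 with library-size scaling). Of all genes, 34.1% were called higher and 34.4% lower. GRHL1 rose from 1.17 ± 0.292 to 2.01 ± 0.551 CPM under the combination, a log2 fold change of 0.79 (SE 0.246, adjusted p = 0.0109), which was not called without control replicate 3 or combination replicate 1 or with library-size scaling. TFCP2L1 rose by 1.29 (SE 0.322, adjusted p = 0.00273). TFCP2 fell by 1.26 (SE 0.106, adjusted p = 1.40e-07) and UBP1 by 0.57 (SE 0.134, adjusted p = 0.00172). GRHL2, the grainyhead factor of many carcinoma lines, had 0 counts in all 12 libraries. The interaction was called for 0 of the 4 by edgeR, with 0 at an unadjusted p under 0.05 and 0 called by DESeq2.

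Of 24 epithelial genes tied to grainyhead factors 12 passed the expression filter, and 7 of these rose and 3 fell under the combination, with a median of 0.83, beside 34.1% and 34.4% of all genes. Genes with few counts in control, such as ELF3, passed the filter through the groups where they are high, so these numbers describe the genes that passed and are no support for a rise of the list. ELF3, an epithelial ETS factor, had a log2 fold change of 3.26 (SE 0.514, adjusted p = 6.75e-05), from 0.153 ± 0.0743 to 1.49 ± 0.507 CPM. CLDN4, a tight junction claudin, had 2.77 (SE 0.310, adjusted p = 2.65e-06), and LSR, a protein of tricellular junctions, 1.79 (SE 0.198, adjusted p = 2.41e-06), to 46.7 ± 2.64 CPM. TGM1, the transglutaminase that crosslinks the cornified envelope, had 2.71 (SE 0.429, adjusted p = 7.14e-05). ST14, SPINT2 and CLDN7 fell, by 2.07, 1.37 and 1.25. Under lurbinectedin alone 6 rose and 2 fell, beside 36% and 35.7% of all genes. Under teriflunomide alone, where GRHL3 was at 4.04 times its control counts, edgeR called 0 of the 12, with 1 at an unadjusted p under 0.05 and 0 called by DESeq2. A relation between GRHL3 and these genes was not tested.

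**Figure D4:**
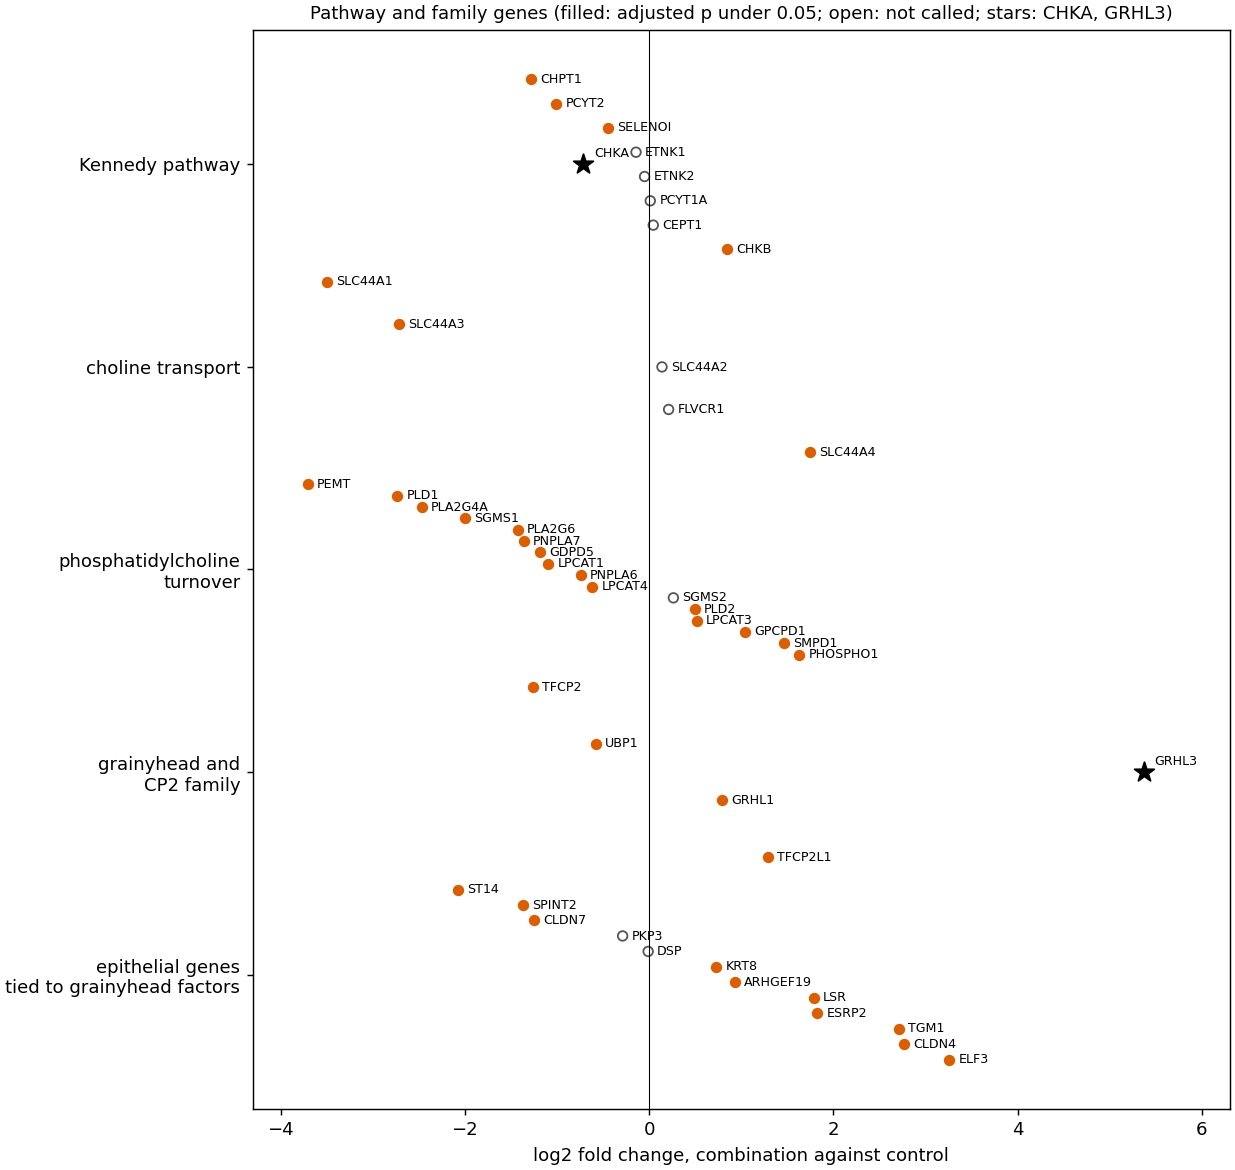
Log2 fold change of the combination against control for the tested genes of the 5 lists around CHKA and GRHL3; filled points have an edgeR adjusted p under 0.05, open points do not, and stars mark CHKA and GRHL3. SLC44A5, with 1 count in the combination, is left out. GRHL3 at 5.37 lies to the right of every listed gene, and CHKA at -0.71 lies among the Kennedy pathway genes.

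LINC00641 was set beside the 266 genes with a LINC symbol that passed the filter. Under the combination 58 of these rose and 121 fell (48 and 127 with library-size scaling), with a median of -0.54. That is 67.3% called, beside 68.4% of all genes (34.1% higher, 34.4% lower) and their median of 0.04. Low-count genes can pass the filter through the groups where they are high, so these numbers describe the genes that passed. Under teriflunomide alone, where LINC00641 stood at 43.9% of control, 13 rose and 3 fell, beside 3.88% and 2.13% of all genes. The interaction was called for 0 of the 266 by edgeR, with 30 at an unadjusted p under 0.05 and 2 called by DESeq2, which gave no adjusted p for 119. The 3 with the smallest adjusted p under the combination were LINC03007 (log2 fold change -3.63), LINC00910 (3.08) and LINC00649 (-2.21).

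Gene length moved with the log2 fold change under the combination, and the 3 genes differ in length. Among all genes cut into 5 bins of genomic span, the bin of LINC00641 (5.264 to 16.263 kb) had a median log2 fold change of 0.51 under the combination, with 52.9% of genes called higher and 12.4% lower. LINC00641 fell in a bin where most calls were rises. The bin of CHKA and GRHL3 (35.937 to 82.931 kb) had a median of -0.28, with 22% called higher and 46.2% lower. CHKA moved with the larger share of its bin and GRHL3 against it.

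The genes next to CHKA, LINC00641 and GRHL3 were counted as well. Within 250 kb lay 55 genes with a symbol, of which 25 were tested, and under the combination 11 rose and 4 fell (8 and 5 with library-size scaling), beside 34.1% and 34.4% of all genes. Beside CHKA 3 of 9 rose and 4 fell. TCIRG1, a subunit of the vacuolar proton pump whose span ends 1.964 kb away, fell by 1.35 (adjusted p = 0.00106), from 3.64 ± 0.498 to 1.42 ± 0.278 CPM. CHKA-DT, the divergent transcript 180 bp from CHKA, had a log2 fold change of 0.04 (SE 0.496, adjusted p = 0.949) at 0.595 ± 0.284 CPM in control, and the sign of this value turned under other settings. Farther off, LRP5 fell by 2.74 and UNC93B1 rose by 1.87.

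Around LINC00641, 5 of 10 tested genes rose and 0 fell at the threshold, beside 34.1% and 34.4% of all genes. HNRNPC, an RNA-binding splicing factor 2.236 kb away, had a log2 fold change of 0.42 (adjusted p = 0.0218), a call lost without control replicate 1, control replicate 3 or combination replicate 2. ZNF219, 95.357 kb away on the other side, rose by 0.79. RNASE7, an antimicrobial ribonuclease of skin, is 1 of the 5. It had 0 counts in control and with teriflunomide and 156 over the combination libraries, so it passed the filter only through the groups with lurbinectedin and had to differ. Around GRHL3, 3 of 6 rose and 0 fell, and with library-size scaling 1 rose and 1 fell. NIPAL3, 51.32 kb away, had 0.49 (adjusted p = 0.0119, not called with library-size scaling) and IFNLR1, 131.398 kb away on the other side, 0.33 (adjusted p = 0.126). STPG1, whose span overlaps the end of GRHL3, rose by 0.69. The interaction was called for 0 of the 25 by edgeR, with 2 at an unadjusted p under 0.05 and 1 called by DESeq2.

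**Figure D5:**
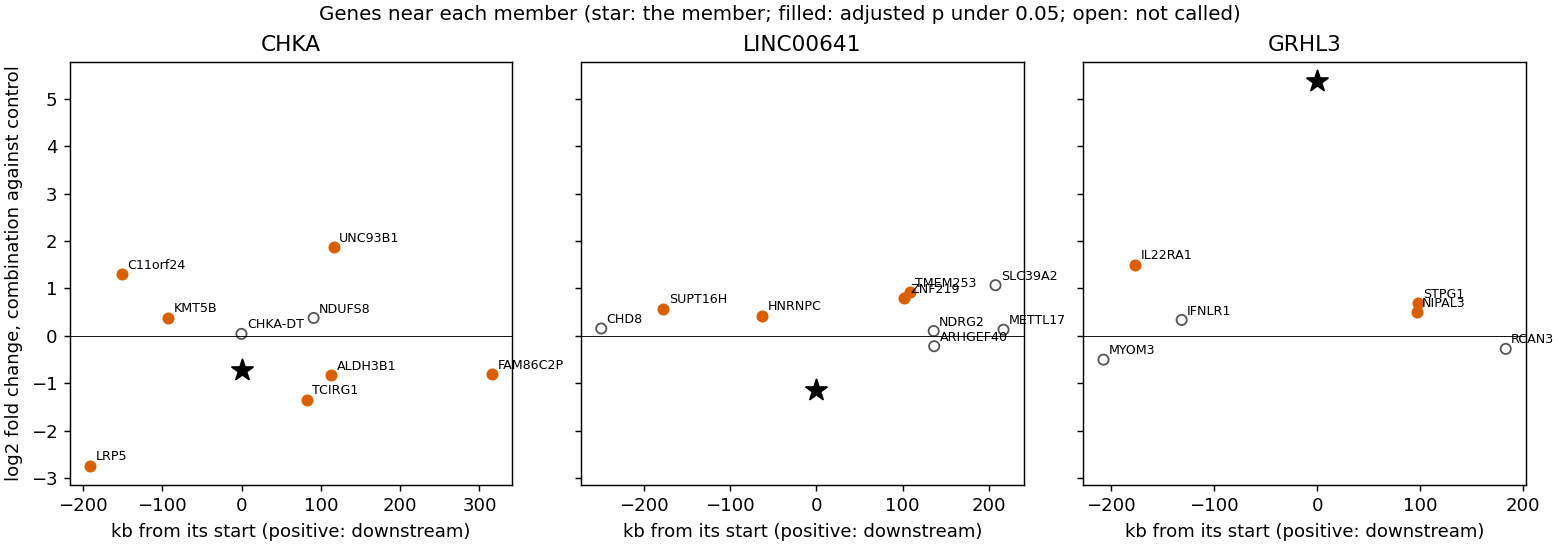
Log2 fold change of the combination against control for the tested genes within 250 kb of CHKA, LINC00641 and GRHL3, by the distance between start sites; filled points have an edgeR adjusted p under 0.05, and the star is the gene named above each panel. RNASE7 is left out because it has 0 counts in control. GRHL3 at 5.37 lies above every neighbour shown, and LINC00641 at -1.14 lies below every neighbour shown in its own panel.

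The genes whose log2 CPM was most like each of the 3 over the 12 libraries were taken from 12731 genes with a symbol and at least 1 CPM on average. These are descriptions, since the 12 libraries form 4 groups and share the 2 drug effects. For CHKA they were UVSSA (Pearson r 0.961), SLC7A6 (0.955), PCBP2 (0.948), RCOR2 (0.937) and RARG (0.934). For LINC00641 they were BNIP3 (0.936), FAM86C2P (0.904), PPP1CC (0.899), PRPS2 (0.898) and LDHA (0.898). GRHL3 was matched more closely, by NECTIN4 (0.999), INKA2 (0.997), DRAM1 (0.997), POLH (0.996) and MR1 (0.996). When Spearman's rho ranks the genes instead, 1 of the 5 stays for CHKA and 0 for LINC00641 and for GRHL3.

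Among these 15, NECTIN4, a cell adhesion protein, had the highest r. It was at 2.42 ± 0.131 CPM in control, 7.40 ± 0.430 with teriflunomide, 73.1 ± 3.26 with lurbinectedin and 72.9 ± 6.57 with both (SD, n = 3 each). BNIP3, a mitochondrial protein of mitophagy and the gene most like LINC00641, had 174 ± 3.31, 113 ± 7.71, 122 ± 3.20 and 131 ± 5.27 CPM.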

How the data were processed

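Polyadenylated RNA of 12 SBC3 libraries was sequenced. Per the submitters' processing notes, fastp 0.23.2, STAR 2.7.9 and featureCounts of Subread were used with hg38. The deposited values are raw read counts per gene, 1 file per library. The treatment of multi-mapping reads and of strand is not given in the sources used here. Positions matched GENCODE 29 for 37318 of 37318 identifiers with the same version. A gene name table gave symbols for 60463 of 60649 identifiers.

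Groups were taken from the treatment label. Counts were tested with edgeR 4.0.16 in R 4.3.3 (filterByExpr, TMM, robust quasi-likelihood fit of 4 group means to 12 libraries, Benjamini-Hochberg over 16683 genes, threshold 0.05) in 7 comparisons. SEs come from the quasi-likelihood F statistic. CHKA, LINC00641 and GRHL3 were tested only in the 3 comparisons that are uncorrelated with the interaction where all groups vary alike. The biological coefficient of variation was 14.5%. The members and lists were chosen with earlier results of these data known. Named genes are the 3 members, their paralogs, the nearest tested gene on each side within 250 kb, at most 3 called genes with the smallest adjusted p per list, and 5 genes most like each member. TGM1, ST14, SPINT2, CLDN7, PCYT1A, SLC44A2, SLC44A4, FLVCR1, GPCPD1, STPG1 and IL22RA1 were named outside this rule, after their values were seen.

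On simulated counts for 16214 genes, a log2 change of 1 was recovered for 79.8% of changed genes in the combination against control. The share was 90.5% in the average teriflunomide effect and 42% in the interaction. In the combination against control the simulation changed 292 genes by 1 and 292 by 2, with independent noise per library. In the data 68.4% of genes were called there, so these rates need not hold for the data. Alternatives were DESeq2 1.42.0, its size factors in edgeR, library size only, no expression filter (at least 1 count), a replicate block, only the groups compared, each library left out, a linear scale and Spearman's rho. No 2 libraries held identical counts. The values of 1 marker gene are not reported here.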

Additional observations from a re-analysis of the deposited data

Results flagged for a closer look

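For 6 named genes the effect of teriflunomide differed between cells without and with lurbinectedin by a test of that difference (edgeR interaction). Of these, 5 were named for their likeness to LINC00641 or GRHL3, so a similar departure is built into the choice and is no independent support. The log2 interaction was -1.61 for NECTIN4 (SE 0.161, adjusted p = 0.00166), -1.16 for INKA2 (SE 0.169, 0.0139), -0.77 for DRAM1 (SE 0.143, 0.0444) and -1.11 for MR1 (SE 0.208, 0.0454), all like GRHL3, and 0.73 for BNIP3 (SE 0.121, 0.0219), like LINC00641. For GPCPD1, of the phosphatidylcholine turnover list, it was -0.74 (SE 0.132, 0.0346), and this gene was named after its values were seen. GPCPD1 rose under every treatment, from 26.7 ± 0.602 CPM in control to 50.1 ± 1.85 with teriflunomide, 48.9 ± 1.38 with lurbinectedin and 55.0 ± 2.68 with both (SD, n = 3 each). Over 18 alternatives the call was lost in 1 for NECTIN4, 9 for INKA2, 11 for BNIP3, 13 for GPCPD1, 14 for MR1 and 15 for DRAM1, with the direction kept in all of them.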

How the results depend on the processing

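The log2 fold changes of CHKA, LINC00641 and GRHL3 kept their direction and their call under every alternative for the combination against control (-0.87 to -0.67, -1.33 to -1.0 and 5.21 to 5.45 over 19 alternatives) and for the average lurbinectedin effect. The average teriflunomide effect of CHKA was -0.41 and not called with library size only, and that of LINC00641 was -0.60 to -0.44 with single libraries left out, 5 of 12 times not called. The interaction was 1.22 for CHKA and -1.80 for GRHL3 with library size only, and -1.83 for GRHL3 without teriflunomide replicate 3 and combination replicate 2 together, an alternative chosen after seeing the data. On the linear scale the departures were 27.2, 26.9 and -0.377 CPM for CHKA, LINC00641 and GRHL3.

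Counts of called genes depended on the setting. For the average teriflunomide effect, teriflunomide against control and the interaction they were 1770, 1002 and 43. They became 431, 265 and 6 with library size only, 2761, 1800 and 195 without the filter, 3001, 1907 and 258 with DESeq2, and 4503, 2757 and 1839 without both libraries that stood apart. With single libraries left out they ran from 321 to 3032, 216 to 1555 and 2 to 616, the highest each without teriflunomide replicate 3 and the lowest without lurbinectedin replicate 1, control replicate 3 and, for the interaction, control replicate 2, control replicate 3, lurbinectedin replicate 1 or lurbinectedin replicate 3. For the combination against lurbinectedin the count was 0, but 612 without the filter, 584 with DESeq2, 94 with only the groups compared, 3640 without both libraries, and 0 to 2067 with single libraries left out. With only the groups compared, teriflunomide against control gave 283. The cause was not tested.

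The counts showed no pairing of libraries by replicate number. With 3 libraries per group, this check cannot settle whether libraries shared a culture or a batch. Over 18 pairs of libraries with the same number, the correlation of deviations from group means ran from -0.402 to 0.144, with 1 above 0.1. With the replicate block the counts were 719, 415 and 8, and no call of CHKA, LINC00641 or GRHL3 changed. With single libraries left out, CHKA-DT under the combination ran from -0.31 to 0.38 on the log2 scale. Its sign reversed with library size only (-0.15), without the filter (-0.0198), without control replicate 2 (-0.31), combination replicate 1 (-0.10) or combination replicate 2 (-0.22), and without both libraries that stood apart (-0.23). GRHL3 is limited by depth, with 4 to 6 counts per control library.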
